A study of Mus musculus with 47 samples.

Results

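SLAM-seq followed the mRNAs of 7 oncofetal regulators in P19, an embryonal carcinoma line of the mouse whose cells can become neurons. They are the RNA-binding proteins Igf2bp1, Igf2bp2, Igf2bp3, Lin28a and Lin28b and their partners Hmga2 and Trim71. Each was taken as the 3′ UTR row whose RefSeq mRNA name maps to the gene, which gave 1 row and 1 transcript per gene, so 7 of 28190 mRNA transcripts and 7 of 18913 genes. The genes were chosen by name with their reads, labeling and decay in both states already known, and these values are therefore given as descriptions, so that a count of calls among them supports nothing. In SLAM-seq, 4-thiouridine (4sU) enters new RNA and is read as a T>C conversion after alkylation. Undifferentiated cells (D0) received 20 µM 4sU. Cells at day 6 of differentiation (D6), induced by retinoic acid (500 nM) in NDiff 227, received 500 µM, so the state and the dose of 4sU cannot be told apart wherever label was used. The anabolic assay followed the uptake of label, and the catabolic assay its loss after 15 h of labeling. The study's methods give this labeling as 15 h and, where they describe the normalization, as a shorter time, so that the libraries called 15 h here are those at the start of the chase. The 16 groups of state, assay and time held 3 libraries each, except for 2 at the third catabolic time at D6. The sample labels give the times as 0, 1, 3 and 9 h and the study's text as 0, 3, 6 and 9 h, and both are named below. The study describes its replicates as biological, the sample labels do not say whether the libraries of a group came from separate cultures, and errors and p-values measure the spread between these libraries.

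LIN28A and LIN28B bind the precursors of the let-7 microRNAs and block their maturation, and let-7 in turn represses mRNAs whose 3′ UTR pairs with its seed, bases 2 to 8. TRIM71 is an RNA-binding E3 ligase of the same pathway, known as a let-7 target since its study in worms, and HMGA2 is a chromatin protein whose mRNA is a textbook let-7 target. The IGF2BP proteins bind mRNAs in the cytoplasm, often at m6A sites, and protect or transport them. Most of them are typical of embryonic and stem cells and are low in adult tissues. In neural progenitors, let-7 and miR-125 rise as cells leave the stem cell state.

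The seeds are shown first, because matches to the let-7 seed were found in each of these 3′ UTRs and matches to the miR-125 seed in 4 of them. Of the let-7 family in RefSeq (GRCm38.p6), 10 mature microRNAs share 1 seed, let-7j differs from it, and miR-125a and miR-125b share another. Capitals mark the seed, and the sequences run from 5′ to 3′.
let-7a-5p: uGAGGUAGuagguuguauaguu
let-7e-5p: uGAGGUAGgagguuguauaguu
let-7g-5p: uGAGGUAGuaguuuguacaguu
miR-98-5p: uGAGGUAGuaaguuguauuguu
let-7j: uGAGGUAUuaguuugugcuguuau
miR-125b-5p: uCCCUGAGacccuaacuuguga

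A let-7 seed match, CTACCTC on the sense strand, was present in the deposited 3′ UTR interval of each of the 7 genes. Over all 18588 distinct mRNA 3′ UTRs that could be read from GENCODE transcripts, 7.63% held at least 1 match. The first match after the stop codon is shown for each gene with its mm10 position, and capitals mark the match. All of these genes lie on the minus strand.
Lin28a, chr4:134005182-134005211: gcacagcctgttgaaCTACCTCatttttgc
Lin28b, chr10:45381015-45381044: acccgggcgggaagtCTACCTCatgcaagc
Trim71, chr9:114512465-114512494: aacattgcctaagtcCTACCTCagcttaaa
Igf2bp1, chr11:95961771-95961800: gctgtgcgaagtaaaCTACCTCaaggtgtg
Igf2bp2, chr16:22059466-22059495: acacacaaataaaagCTACCTCaggtgttt
Igf2bp3, chr6:49086780-49086809: tgcatttttactcaaCTACCTCaggtattc
Hmga2, chr10:120364217-120364246: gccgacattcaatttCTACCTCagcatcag

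The intervals differed in length and in the number of matches. Those of Igf2bp1 (chr11:95957163-95963499, 6337 bases), Lin28b (chr10:45376619-45381064, 4446 bases) and Hmga2 (chr10:120361275-120364251, 2977 bases) each held 4. Among 3′ UTRs within 20% of its length, 4 or more matches were found in 0.345% of 290 for Igf2bp1, in 0.376% of 798 for Lin28b and in 0.0615% of 1625 for Hmga2, each gene included. Only 7 of the 18588 3′ UTRs held 4 or more, and these 3 genes are among them. Lin28a (chr4:134003330-134006104, 2775 bases) held 2, which 2.2% of 1771 3′ UTRs of like length reached. Trim71 (chr9:114511268-114512644, 1377 bases) also held 2, at bases 166 and 262 from its start, against 0.695% of 2446. Igf2bp2 (chr16:22059009-22060792, 1784 bases) and Igf2bp3 (chr6:49085218-49087341, 2124 bases) held 1 each, as did 11.5% and 12.9% of 3′ UTRs of like length. A letter match is a description of the sequence and was not tested as a binding site.

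The miR-125 seed match, CTCAGGG, was found once each in Lin28a, Lin28b, Trim71 and Igf2bp3 and not in the other 3 intervals. It occurred in 11.8% of all 3′ UTRs. Among 3′ UTRs of like length it occurred in 25.4% for Lin28a, 31.8% for Lin28b, 14.9% for Trim71 and 20.7% for Igf2bp3. For the genes without a match these shares were 42.8% for Igf2bp1, 18.2% for Igf2bp2 and 26% for Hmga2. In Lin28a the miR-125 match starts at base 797 of the interval, and the first let-7 match at base 909:
Lin28a, chr4:134005294-134005323: aggtacatgagcaatCTCAGGGataataag
The last exon of Trim71 in GENCODE runs 4135 bases past the 3′ end of the deposited interval and holds 2 further let-7 matches there. Reads that fall in that stretch are not in the counts of the Trim71 row. The deposited interval of Igf2bp1 overlaps 1 row of another gene, and whether the rows share reads was not tested.

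**Figure D1:**
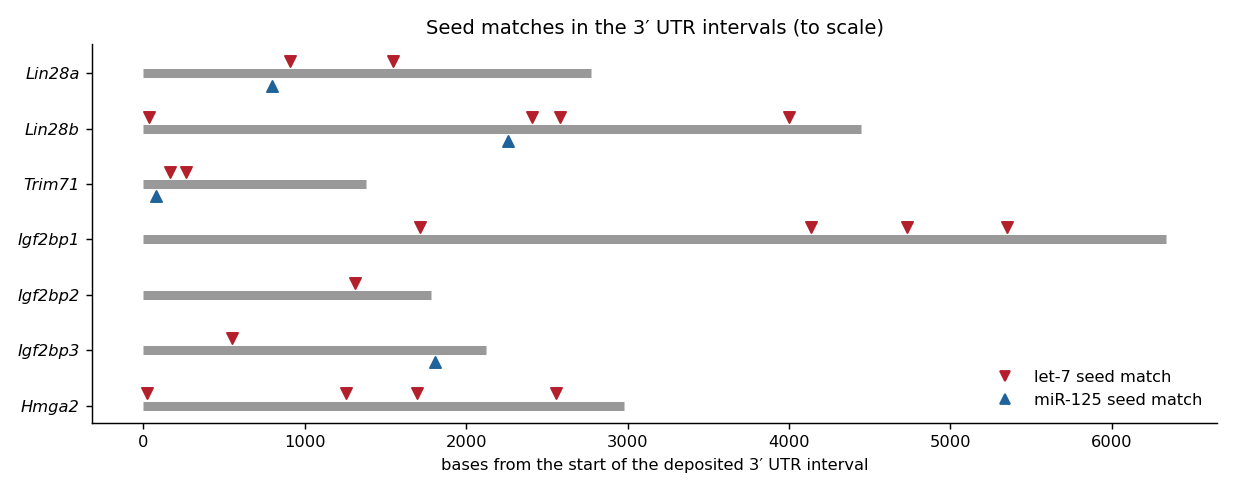
Positions of the let-7 (red) and miR-125 (blue) seed matches along the deposited 3′ UTR intervals, drawn to scale in bases from the start of each interval (x axis) for the 7 genes (y axis). Igf2bp1, Lin28b and Hmga2 hold 4 let-7 matches each, Lin28a and Trim71 hold 2, and Igf2bp2 and Igf2bp3 hold 1.

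Reads on 3′ UTRs ranged from 3447888 to 11677046 per library at D0 and from 1489528 to 7930149 at D6, and values are given as CPM, counts scaled to a common total of these reads. One D6 library, replicate 14 of the third catabolic time, was the shallowest and stood apart for several genes below. Neuron markers rose at D6: the 6 fixed genes (Map2, Tubb3, Dcx, Stmn2, Elavl3, Elavl4) passed the test for more reads without 4sU, and their summed level was 461 to 710.2 CPM in the D0 libraries and 6907 to 9979 in the D6 libraries. Of the 7 pluripotency markers, Pou5f1, Utf1 and Tdgf1 fell, Sox2 and Esrrb did not pass the test, Nanog was too low to test and Zfp42 had no read in any library. Summed mesoderm and endoderm markers reached at most 55.8 CPM and glia markers 52.7 CPM in any library, with Aqp4 at 0 throughout. Mesenchyme markers summed to 79.7 to 169.6 CPM at D0 and 0.185 to 33.6 at D6. These are bulk libraries, so fewer cells that express a gene and less RNA per cell cannot be told apart, and the part of cell composition in the results below was not tested.

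All 7 mRNAs were lower at D6 than at D0 in the 3 against 3 libraries that received no 4sU, and for each of them the 2 sets of libraries did not overlap. Over all transcripts with a mean of at least 10 CPM, 17.9% of 13835 showed the same order. The fitted fall was 77.4-fold for Lin28a, 12.2-fold for Trim71, 4.46-fold for Igf2bp1, 3.41-fold for Hmga2, and between 1.86-fold and 2.21-fold for Igf2bp3, Igf2bp2 and Lin28b. With edgeR's quasi-likelihood test and Benjamini-Hochberg adjustment over 16091 transcripts, 4 of the 7 were called lower (Lin28a, Trim71, Igf2bp1 and Hmga2), against 5.4% of all transcripts called lower and 13.1% called in either direction. DESeq2 called all but Lin28b, against 8.79% lower and 20.1% in either direction.

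Lin28a, the LIN28 paralog of pluripotent cells, stood at 763, 909 and 1287 CPM in the D0 libraries without 4sU and at 5.27, 12.1 and 21.4 CPM in those of D6, a log2 change of -6.28 ± 0.53 (SE). Every D0 library was above every D6 library. Over all assays and times it ranged from 649 to 1287 CPM with a median of 785 in 24 libraries at D0, and from 3.88 to 69.7 CPM with a median of 9.3 in 23 at D6. The D6 values rest on 14 to 278 reads per library and varied with an SD of 1.02 on the log2(CPM + 1) scale within groups, compared with 0.23 at D0. Among the D6 groups, the mean reached 42.9 CPM in the 2 libraries of the third catabolic time and was 4.72 CPM at 9 h of chase.

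Lin28b, the second LIN28 paralog, differed less without 4sU. Its values were 63.8, 82.2 and 105 CPM at D0 and 25.4, 42.2 and 48.6 CPM at D6, a log2 change of -1.14 ± 0.49. These 3 D6 libraries do not overlap those of D0 but include some of the highest D6 values: over all libraries, D0 ranged from 60.2 to 154 CPM with a median of 93.7 and D6 from 0 to 83.2 CPM with a median of 13.1. The ratio of group means, D0 over D6, was 2.16 without 4sU and 68.6 at the third catabolic time. There the 2 D6 libraries held only 0 and 5 Lin28b reads. In the catabolic 0 h libraries, after 15 h of 4sU, the log2 change between the states was -2.71. One D6 library had no Lin28b read among 1489528, which allows up to 2.01 CPM, counting error only.

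Trim71 stood at 133, 231 and 299.7 CPM at D0 and 13.3, 19.3 and 20.6 CPM at D6 without 4sU, a log2 change of -3.62 ± 0.40. Over all libraries it ranged from 133 to 303 CPM (648 to 2642 reads, median 1668) at D0 and from 0 to 48.8 CPM with a median of 15.1 at D6, with no overlap. The same D6 library that lacked Lin28b also had no Trim71 read. As for Lin28a and Lin28b, the spread within groups at D6 was wide, with an SD of 1.45 on the log2(CPM + 1) scale against 0.34 at D0.

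Igf2bp1, which binds Actb and Gap43 mRNA among others, varied least of the set within groups. On the log2(CPM + 1) scale its SD within groups was 0.074 at D0 and 0.252 at D6. Without 4sU Igf2bp1 stood at 2282, 2445 and 2482 CPM at D0 and 481, 560.1 and 584 CPM at D6, a log2 change of -2.16 ± 0.21. The D0 libraries ranged from 1845 to 2482 CPM with a median of 2321 and the D6 libraries from 429 to 747 CPM with a median of 567, without overlap. Its group means differed by no more than 1.23-fold within D0 and 1.24-fold within D6. Each D6 library held 775 to 4238 of its reads, and the ratio of the states lay between 3.24 and 4.5 at the 8 combinations of assay and time.

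The other IGF2BP paralogs fell less. Igf2bp2 stood at 305, 318 and 421 CPM at D0 and 123, 133 and 235 CPM at D6 without 4sU (log2 change -1.11 ± 0.35). Igf2bp3 stood at 454, 465 and 501 CPM at D0 and 207, 232 and 327 CPM at D6 (log2 change -0.90 ± 0.28). For both, the states did not overlap at any of the 8 combinations of assay and time, but single libraries of different times did. The highest D6 library of Igf2bp2 had 320.1 CPM and the lowest D0 library 281. For Igf2bp3 these were 365 and 349.8 CPM, and 1 D6 library held only 10 reads (6.71 CPM).

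Hmga2 stood at 342, 407 and 553 CPM at D0 and 124, 124 and 143 CPM at D6 without 4sU, a log2 change of -1.77 ± 0.31. This was its widest gap. The ratio of group means was 3.34 here, 1.5 after 15 h of 4sU and 1.35 at the third catabolic time, where the libraries of the states overlapped. The log2 change estimated from the 15 h libraries was -0.70. Over all libraries Hmga2 ranged from 243 to 553 CPM with a median of 309 at D0 and from 74.1 to 302 CPM with a median of 133 at D6.

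**Figure D2:**
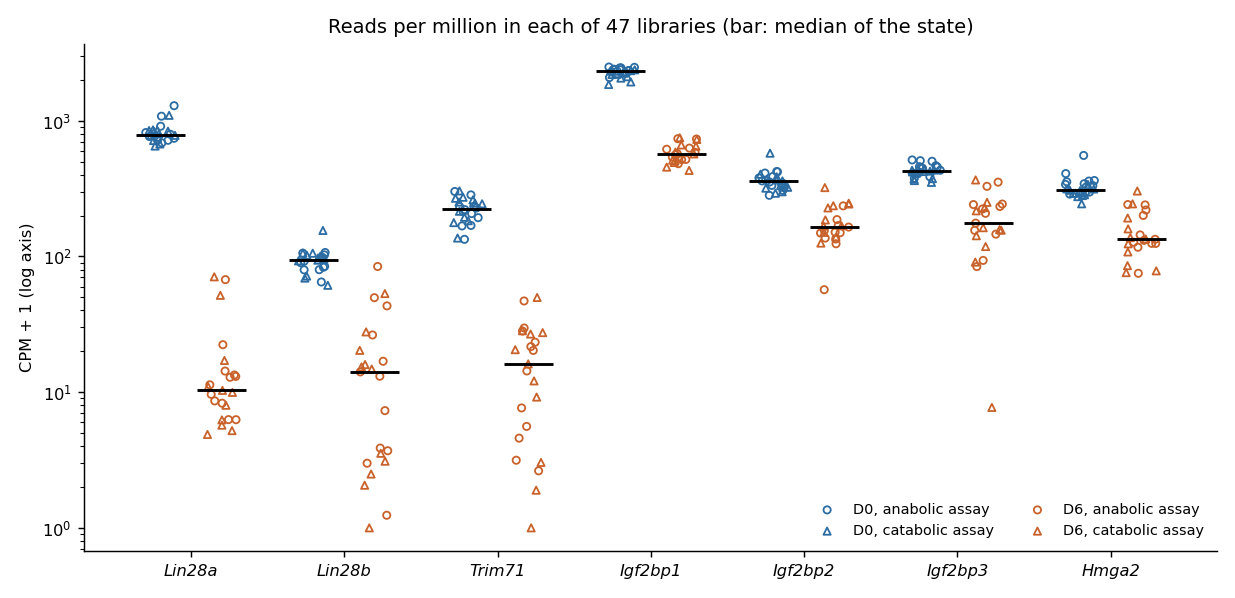
CPM plus 1 (log axis) of the 7 mRNAs in each of 47 libraries, by state (blue D0, orange D6) and assay (circles anabolic, triangles catabolic), with the median of each state as a bar. The states do not overlap for Lin28a, Trim71 and Igf2bp1, and the D6 values of Lin28a, Lin28b and Trim71 scatter more widely than the others.

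Taking all 24 D0 and 23 D6 libraries, Lin28a, Trim71 and Igf2bp1 were higher in every D0 library than in any D6 library, as were 2.99% of 13835 transcripts. Ordered by mean level, the 8 D0 groups ranked above the 8 D6 groups for each of the 7 genes. Neighbours in that order mostly overlapped: of 15 neighbouring pairs, 11 overlapped for Lin28a, 13 for Trim71, 15 for Hmga2 and 14 for the others.

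**Figure D3:**
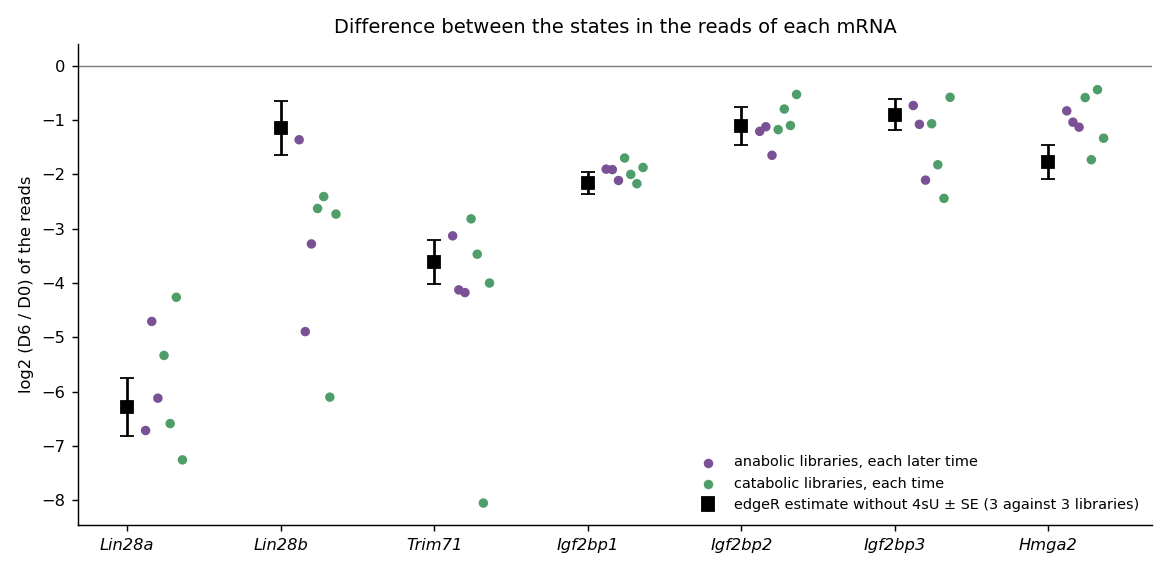
The log2 ratio of D6 to D0 reads (y axis) for the 7 mRNAs. Black squares are the edgeR estimates without 4sU with their SE (3 against 3 libraries), and points are ratios of group means at the other anabolic (violet) and catabolic (green) times. All values lie below 0, and those of Lin28b and Trim71 spread most.

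Over the 16 groups, the genes whose mean log2(CPM + 1) was most like that of each mRNA by Pearson's r, among 8774 genes, were Vsig8 (r = 0.991) and Ncl (r = 0.99) for Lin28a, Top2a (r = 0.974) and Parl (r = 0.974) for Lin28b and Iqgap1 (r = 0.986) and Utp4 (r = 0.982) for Trim71. They were Nr5a1 (r = 0.994) and Zscan10 (r = 0.994) for Igf2bp1, Rpl8 (r = 0.974) for Igf2bp2, Pkp4 (r = 0.984) and Riox1 (r = 0.978) for Igf2bp3 and Psat1 (r = 0.948) and Id1 (r = 0.942) for Hmga2. Among the 7 themselves r was lowest between Igf2bp3 and Hmga2 (0.62) and highest between Igf2bp1 and Lin28a (0.974). The 16 points share their libraries and fall into 2 states, so that any gene lower at D6 scores high.

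Most of the let-7 machinery did not pass the test. Of 16 fixed genes for let-7 processing and silencing, 15 could be tested for reads without 4sU, 2 rose, none fell and 13 did not pass, with a median log2 change of 0.38 against -0.039 over all transcripts tested. Over all transcripts 7.74% were called higher and 13.1% in either direction, and 2 of 15 is near that share. Tnrc6c, a GW182 scaffold of the silencing complex, had 75.8 ± 18 CPM at D0 and 307 ± 34.2 at D6 (log2 change 2.02 ± 0.31, adjusted p = 0.00155). Its paralog Tnrc6b had 162 ± 28.6 CPM at D0 and 401 ± 64 at D6 (log2 change 1.30 ± 0.28, adjusted p = 0.011). The nuclease Dicer1 had 94 ± 13.3 CPM at D0 and 123 ± 41.2 at D6 (log2 change 0.38 ± 0.36, adjusted p = 0.609), and Dis3l2, which degrades tailed let-7 precursors, 6.26 ± 7.07 CPM at D0 and 21.4 ± 5.28 at D6 (log2 change 1.84 ± 1.54, adjusted p = 0.54). The uridylyltransferases that LIN28A recruits, Tut4 and Tut7, did not pass either (adjusted p = 0.225 and 0.215). All adjusted p here are from edgeR over 16091 transcripts.

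Of 20 other known let-7 targets, 19 were tested, 6 fell, 2 rose and 11 did not pass, with a median log2 change of -1.12 against -0.039. Background calls were 5.4% lower and 7.74% higher. Prtg, a cell surface receptor of the early embryo, showed the largest fall, with 472 ± 99.1 CPM at D0 and 9.01 ± 7.84 at D6 (log2 change -5.67 ± 0.58, adjusted p = 0.000129). Cdk6, a G1 kinase, had 254 ± 11.5 CPM at D0 and 30.2 ± 17.1 at D6 (log2 change -3.06 ± 0.48, adjusted p = 0.00183). Nr6a1, Ccnd2 and Cdc25a also fell. In the other direction, Igf1r, the IGF1 receptor, had 234 ± 59.1 CPM at D0 and 548 ± 88.1 at D6 (log2 change 1.24 ± 0.27, adjusted p = 0.0111), and the G1 cyclin Ccnd1 had 136 ± 44.2 CPM at D0 and 302 ± 42.1 at D6 (log2 change 1.17 ± 0.30, adjusted p = 0.0265). Mycn had 90.1 ± 56.9 CPM at D0 and 36.3 ± 10.4 at D6 (log2 change -1.26 ± 0.60, adjusted p = 0.22).

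Of 10 genes for IGF2BP1 particles and bound mRNAs, 2 rose, none fell and 8 did not pass, and the median log2 change was 0.21 against -0.039, with 7.74% of all transcripts called higher and 13.1% in either direction. The mRNAs of both genes that rose are known to be bound by IGF2BP1. Mapt, which encodes tau, had 7.91 ± 5.5 CPM at D0 and 1261 ± 121 at D6 (log2 change 7.27 ± 0.59, adjusted p = 2.65e-05), and Gap43, a growth cone protein, had 464 ± 143 CPM at D0 and 1414 ± 167 at D6 (log2 change 1.58 ± 0.31, adjusted p = 0.00667). The particle proteins Ybx1, Dhx9, Syncrip and Hnrnpu had log2 changes of -0.27, -0.054, 0.47 and -0.63, none past the test by edgeR (lowest adjusted p = 0.251). Igf2, the mRNA that gave the family its name, had 46.3 ± 13.8 CPM at D0 and 113 ± 17.6 at D6 (log2 change 1.27 ± 0.41, adjusted p = 0.0666).

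Whether reads of the 7 mRNAs differed with 4sU was not part of how they were chosen, and it was tested within each state. The libraries after 15 h are from the catabolic assay and those without 4sU from the anabolic assay. For 15 h, 4sU and assay therefore cannot be told apart, while the 9 h comparison stays within the anabolic assay. None of the 7 passed edgeR's test for 15 h of 4sU against none in either state or for the difference of the responses, nor for 9 h against none. Few transcripts passed at all: 0.0342% of 17569 for 15 h at D0 (0.0171% lower and 0.0171% higher), 0.0569% for 15 h at D6, 0 for the difference (846 at an unadjusted p under 0.05, 75 adjusted calls by DESeq2), 0 of 17860 for 9 h at D0 (437 unadjusted, 54 by DESeq2) and 0.0336% for 9 h at D6. The smallest adjusted p belonged to Igf2bp3 after 9 h at D6. Its reads were 207, 232 and 327 CPM without and 83.2, 92.4 and 145 CPM with label, a log2 change of -1.29 ± 0.31 (edgeR adjusted p = 0.32). The libraries did not overlap, and DESeq2 called the difference (adjusted p = 0.0157), as it did 1.62% of transcripts. Over 7 alternatives the adjusted p lay between 0.0157 and 0.634. At D0 the same contrast gave -0.048 ± 0.30 (edgeR adjusted p = 1). After 15 h at D6 the log2 change of Igf2bp3 was -0.60 ± 0.28 (adjusted p = 0.866 with edgeR and 0.68 with DESeq2). Those libraries overlapped the ones without label.

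Lin28b at D6 had 25.4, 42.2 and 48.6 CPM without label, 1.99, 12.1 and 15.9 CPM after 9 h and 2.1, 14.3 and 26.8 CPM after 15 h. The log2 changes were -1.96 ± 0.67 (edgeR adjusted p = 0.500) and -1.51 ± 0.67 (adjusted p = 0.866), and at D0 they were 0.19 ± 0.63 and 0.074 ± 0.64. Hmga2 went the opposite way in the 2 states after 15 h. At D0 the libraries had 342, 407 and 553 CPM without and 284, 291 and 313 CPM with label, all lower with label. At D6 they had 124, 124 and 143 CPM without and 158, 191 and 243 CPM with label, all higher. The difference of the 2 responses was 1.05 ± 0.40 and did not pass (edgeR adjusted p = 1, unadjusted p = 0.0162). For Igf2bp1 the responses to 15 h were -0.28 ± 0.19 at D0 and 0.06 ± 0.19 at D6, and for Lin28a -0.20 ± 0.57 and 0.56 ± 0.61.

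**Figure D4:**
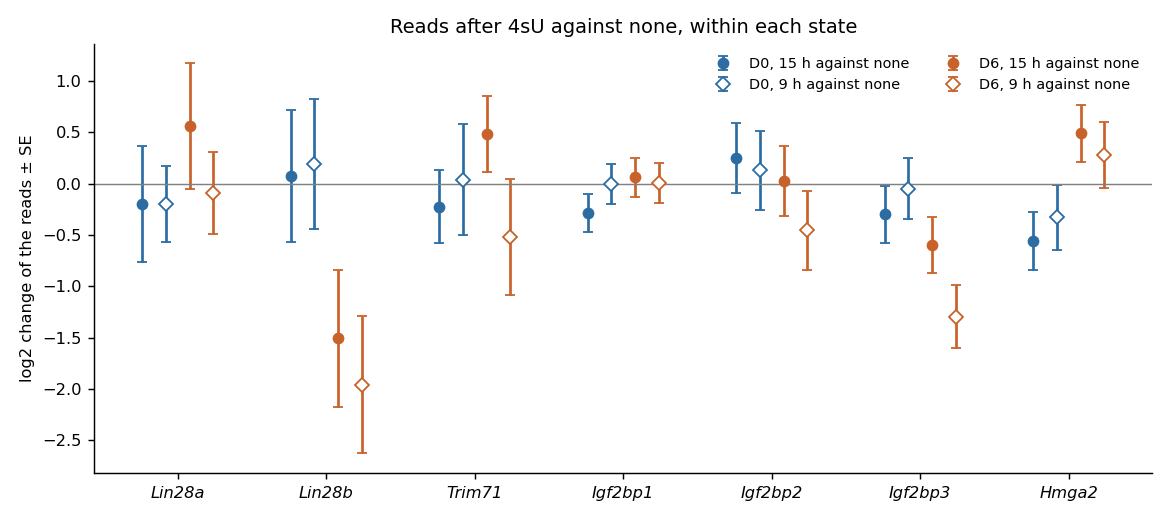
The log2 change of the reads with 4sU against none (y axis, ± SE from edgeR) for the 7 mRNAs, after 15 h (filled circles) and 9 h (open diamonds), at D0 (blue) and D6 (orange). The 15 h values compare catabolic with anabolic libraries, and the 9 h values stay within the anabolic assay. No change passed edgeR's adjusted test, and the lowest values are those of Lin28b and Igf2bp3 at D6.

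After 15 h of labeling the T>C rate over all 3′ UTRs was 1.42% ± 0.0635 at D0 and 4.63% ± 0.339 at D6, and without 4sU 0.171% ± 0.0329 and 0.166% ± 0.0275 (SD, n = 3). Most of the 7 mRNAs were labeled about as much as the library. Igf2bp1 reached 1.37, 1.61 and 2.12% at D0 and 3.65, 6.29 and 6.41% at D6, Igf2bp2 1.11, 1.83 and 1.84% and 3.72, 5.97 and 6.48%, and Igf2bp3 1.24, 1.32 and 1.7% and 3.35, 4.14 and 5.67%. Relative to the rate of the same library, the group means of these 3 lay between 0.962 and 1.2 in both states. Single libraries ran from 0.701 (Igf2bp3 at D6) to 1.52 (Igf2bp1 at D0). Hmga2 lay at 0.851 ± 0.196 at D0 and 1.04 ± 0.0992 at D6 (SD, n = 3). Lin28b lay at 0.825 ± 0.353 and 1.08 ± 1.28. Lin28a lay at 1.1 ± 0.127 at D0 and 0.545 ± 0.249 at D6, with rates of 1.31, 2.93 and 3.2% over 610 to 4217 covered T positions.

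Trim71 had high T>C rates in the libraries without 4sU. Its T>C rates there were 0.458, 0.895 and 4.57% at D0 and 1.58, 1.85 and 1.89% at D6, above the rates of all 3′ UTRs together. Its rates after 15 h, 0.991, 1.68 and 5.29% at D0 and 2.22, 4.66 and 6.47% at D6, overlapped those without 4sU at D0 and not at D6. They were 1.82 ± 1.51 of the library rate at D0 and 0.964 ± 0.447 at D6. One D0 library in each set was far above the others, at 4.57% and 5.29%. Igf2bp1 had 0.257, 0.258 and 0.614% without 4sU at D0 and 0.111, 0.294 and 0.388% at D6, while Igf2bp2, Lin28a and Hmga2 were at or under 0.327% in each D0 library. Single libraries of other genes were also high without 4sU, with Igf2bp3 at 0.525% at D0 and Lin28a at 0.911% and Lin28b at 1.75% at D6. For Lin28b at D6 the rates after 15 h (0.595, 2.79 and 10.8%, over 168 to 3615 covered T positions) overlapped those without label (0, 0.0577 and 1.75%). The decay and synthesis values of Trim71 therefore include conversions that are there without label. Unsubtracted values of the other genes include them too, to differing degrees. For Igf2bp1 at D0 the mean rate was 0.376% without 4sU, 1.7% after 15 h and 0.571% at 9 h of chase.

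Decay was followed as the share of the 0 h conversion rate left at later catabolic times. At 9 h, the hour that the labels and the study's text share, the share left for Igf2bp1 was 33.6% ± 1.16 at D0 and 8.76% ± 3.29 at D6 (SD, n = 3), without overlap. Igf2bp3 kept 41.1% ± 19.3 and 8.8% ± 9.06, and Igf2bp2 11.8% ± 6.56 and 1.79% ± 0.946. For Hmga2 the shares were 20.8% ± 18.3 and 19% ± 3.79, and for Lin28a 13.1% ± 7.61 and 38.5% ± 16.9, where the D6 values rest on few reads. Lin28b kept 59.1% ± 57.2 at D0 and 1.06% ± 1.03 at D6, and Trim71 24.1% ± 10.5 and 51.7% ± 86.7. For Lin28a, Lin28b and Trim71 the spread between libraries was wide in at least 1 state. It was also wide at D0 for Hmga2 (3.55 to 40%) and Igf2bp3 (27.5 to 63.2%). The median share over 14426 transcripts was 11.3% ± 6.8 at D0 and 5.95% ± 4.25 at D6. Subtracting the rate without 4sU lowered these shares, the median to 5.94% ± 4.51 at D0 and 3.95% ± 3.82 at D6. Igf2bp1 then kept 14.7% ± 1.49 and 4.11% ± 3.46, Igf2bp3 30.2% ± 22.9 and 5.23% ± 9.41, and Lin28a 11% ± 7.79 and 26.4% ± 20.2. Hmga2 kept 7.92% ± 21.2 at D0 and 18.1% ± 3.83 at D6, so that its order between the states turned. Shares of Lin28b at D6 (-13.4% ± 1.18) and of Trim71 at D0 (-197% ± 41) became negative, since the rate without 4sU was above that at 9 h.

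Conversions were fitted as a log2 slope over the hours of the study's text, and the slope at D6 minus that at D0 was negative, so faster loss at D6, for 5 of the 7. It was -0.27 ± 0.07 log2 per h for Igf2bp1, -0.36 ± 0.17 for Igf2bp2, -0.29 ± 0.13 for Igf2bp3, -0.55 ± 0.23 for Lin28b and -0.03 ± 0.14 for Hmga2. For Lin28a it was 0.12 ± 0.11 and for Trim71 0.13 ± 0.14. The median over all 14426 transcripts was -0.10, and 0.0139% were called, none of them a member. The shift of Hmga2 was thus smaller than that median. Replicate 14 of the third catabolic time, without reads of Lin28b and Trim71, enters their fits with no conversions. Without it the differences were -0.55 for Lin28b, 0.13 for Trim71 and -0.46 for Igf2bp2. Hmga2 and Trim71 changed sign when single libraries were left out.

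**Figure D5:**
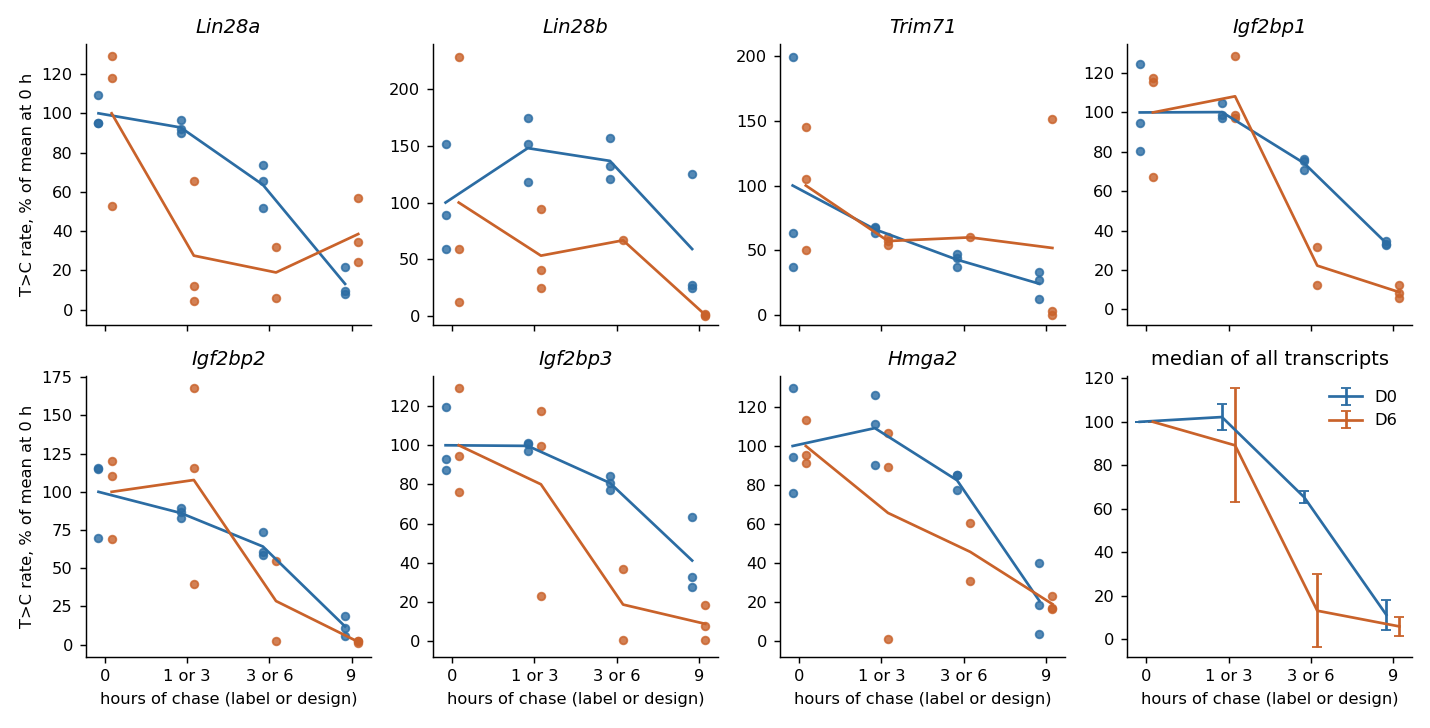
T>C rate as a percentage of the mean at 0 h (y axis) over the catabolic times (x axis, hours of the sample labels or of the study's text) at D0 (blue) and D6 (orange). Points are libraries and lines join the means, and the last panel gives the median of all transcripts with its SD. Igf2bp1 and Igf2bp3 keep a larger share at 9 h at D0 than at D6, and the D6 points of Lin28a, Lin28b and Trim71 scatter widely.

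Exponential decay, fitted with the limits of the study's methods (R squared over 0.6, half-life up to 5000 min), gave a half-life for 3 of the 7 at D0 and 2 at D6, compared with 15.6% and 16.9% of all 14426 transcripts. At D0 the decay half-life was 570.5 ± 124 min (SE) for Igf2bp1, 379.8 ± 75.5 min for Lin28a and 361 ± 75.8 min for Igf2bp2, and the median of kept transcripts was 281 min. At D6 it was 294 ± 99 min for Igf2bp1 and 228 ± 75.5 min for Igf2bp3, with a median of 221 min. With the hours of the study's text only Igf2bp1 had a value in both states, and Lin28b, Trim71 and Hmga2 had none in either. That pair is at the limit: the D6 fit had an R squared of 0.601, fell to 0.592 with the rate without 4sU subtracted, and was under the limit in 7 of 11 fits with a library left out. The D0 fit was under it without library 25 (R squared 0.502). All of these values depend on which hours are right. With the hours of the sample labels the half-lives of Igf2bp1 were 384 ± 57 min and 163 ± 57 min. Igf2bp3 then also had a value in both states, 472 min at D0 and 112 min at D6. The other values at D0 were 239 min for Lin28a, 228 min for Igf2bp2 and 354 min for Hmga2. With 0 and 9 h only, which both sources share, 4 genes had a value in both states. These were 344 min at D0 and 154 at D6 for Igf2bp1, 422 and 154 for Igf2bp3, 176 and 93 for Igf2bp2, and 238 and 226 for Hmga2. Lin28a then had 184 min at D0. The SE of Igf2bp2 at D6 (129 min) was larger than its value.

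Uptake of label in the anabolic assay gave a synthesis half-life for 5 of the 7 at D0 and for Igf2bp1 alone at D6. Over all 14426 transcripts, 22.1% had one at D0 and 10.2% at D6. Igf2bp1 had 259 ± 37.4 min at D0 and 321 ± 65.6 min at D6. The other D0 values were 271 ± 73.7 min for Lin28b, 356 ± 83.4 min for Lin28a, 379 ± 85 min for Hmga2 and 469.8 ± 98.7 min for Igf2bp2, with a median of 417 min over kept transcripts. With the hours of the sample labels these became 143 and 192 min for Igf2bp1, and 160.3, 219, 239 and 304 min for the others in the same order. With 0 and 9 h only Lin28a had 114 min, Hmga2 163 and Igf2bp2 246 at D0, and Lin28b had none. Lin28b and Hmga2 also lost their value with the rate without 4sU subtracted (R squared 0.586 and 0.56). The order of the states for Igf2bp1 turned with 0 and 9 h only (187 min at D0 and 171 at D6) and with the rate without 4sU subtracted (350.3 and 342 min), so that it cannot be read. After 9 h of uptake the D0 rates of Hmga2 (1.09, 1.09 and 1.1%) and Lin28a (1.43, 1.5 and 1.58%) differed little between libraries. At D6 they were 1.83, 5.05 and 7.72% and 0.129, 0.144 and 1.21%. Igf2bp2 ranged from no conversion in 589 covered T positions, which allows up to 0.509%, to 8.22%. Intervals and limits of this kind cover counting error only, since the reads carry no molecular identifiers.

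Newly made RNA, the rate after 9 h over that after 15 h, differed between the states by a log2 of -2.79 ± 0.71 for Lin28a and -1.05 ± 0.97 for Trim71. At D6 the 9 h rates of Lin28a (0.129, 0.144 and 1.21%) overlapped its rates without 4sU (0.135, 0.18 and 0.911%), and its 9 h share of the 15 h rate was 4.08% ± 29.9 with the rate without 4sU subtracted, so that label taken up by 9 h was not detectable at this depth. The other 5 lay between -0.17 and 0.16, with an SE of up to 1.79. The median over all transcripts was -0.44, and no transcript was called by edgeR (1036 at an unadjusted p under 0.05). Leaving out single libraries moved Lin28b between -5.98 and 1.21, Igf2bp2 between -1.06 and 0.47 and Trim71 between -2.49 and -0.63, so that no direction can be read for Lin28b and Igf2bp2. The lowest values of both came without the D6 library 52 at 9 h, and that of Trim71 without library 54. The range of Hmga2, Igf2bp1 and Igf2bp3 also included 0. Lin28a moved between -4.22 and -2.21, lowest without the D6 library 53.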

How the data were processed

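P19 cells were profiled by SLAM-seq (3′ end sequencing) in 47 libraries. The authors mapped reads to mm10 and counted conversions with SLAMdunk (0.3.3 in the file headers). The deposited files hold, per 3′ UTR interval, counts of reads, covered T positions, T>C conversions and converted reads. They also hold a conversion rate deposited as a fraction and reads deposited as CPM by the authors, which were not used. Rates and CPM (scaled to the reads on distinct intervals) were recomputed from the counts. Reads carry no molecular identifiers.

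Counts were summed per RefSeq mRNA, and tests ran over all transcripts kept, in edgeR 4.0.16 (R 4.3.3) by its quasi-likelihood test with TMM, filterByExpr and Benjamini-Hochberg adjustment at 0.05. Conversions were fitted with the log of covered T positions as offset for transcripts with a mean of at least 1000. DESeq2 1.42.0, no filter, 1 transcript per distinct 3′ UTR, other hours, background subtraction, a higher coverage minimum and each library left out were alternatives. Half-lives were fitted by least squares in Python. The scripts were tested on simulated data. Seed matches were searched in GENCODE M21 transcripts (GRCm38) placed on the deposited intervals where at least 99% of the bases were covered.

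Named were the 7 members, of each list the 2 genes with the largest change in each direction among those past the test, and the 2 genes most like each member. Dicer1, Dis3l2, Tut4, Tut7, Mycn, Igf2, the particle proteins, the other let-7 targets that fell and the let-7-rich genes were named beyond this rule. Some genes that this rule names are not reported here. The members and lists were chosen with earlier results of these data known. No pairing or sequencing batch is given by the labels.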

Additional observations from a re-analysis of the deposited data

Results flagged for a closer look

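The reads of Hmga2 after 15 h of 4sU moved in opposite directions in the 2 states. All 3 D0 libraries with label (284, 291 and 313 CPM) were below the 3 without (342, 407 and 553 CPM), and all 3 D6 libraries with label (158, 191 and 243 CPM) were above the 3 without (124, 124 and 143 CPM). The test of the difference gave a log2 of 1.05 ± 0.40 and did not pass over 17569 transcripts (adjusted p = 1 with edgeR and 0.561 with DESeq2, between 0.561 and 1 over 13 alternatives). The doses of 4sU differ between the states. Within each state the libraries with label are catabolic and those without are anabolic, so that 4sU and assay cannot be told apart here.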

How the results depend on the processing

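No paired analysis was possible because the library numbers in the titles are unique across groups. For reads without 4sU, edgeR called 2115 transcripts, DESeq2 3234, 1 transcript per distinct 3′ UTR 1357, and 1253 to 2307 with each library left out (1253 without the D6 library 37). All 7 mRNAs remained lower at D6 in each of these. For 15 h of 4sU the counts were 6 at D0 (115 with DESeq2, 69 without a filter, 1 to 22 with a library left out) and 10 at D6 (130, 26, 4 with 1 transcript per distinct 3′ UTR, 0 to 14). The difference of the responses gave 0 (75 with DESeq2, 0 to 9 with a library left out), 9 h gave 0 at D0 (54, 0 to 7) and 6 at D6 (289, 0 to 15). The decay slope gave 2 (108 with the hours of the labels, 34 with 0 and 9 h only, 3 with at least 10000 covered T positions, 0 to 4 with a library left out) and newly made RNA 0 (0 to 52, highest without the D6 library 52). The cause was not tested. A decay half-life was kept for 3 of the 7 at D0 (5 with the hours of the labels or with 0 and 9 h only, 3 to 5 with a library left out) and 2 at D6 (4 with 0 and 9 h only, 1 with the background subtracted, 0 to 3), and a synthesis half-life for 5 at D0 (6 with the hours of the labels, 3 with the background subtracted, 3 to 5) and 1 at D6 (2 with the hours of the labels, 1 to 1). Responses of the 7 to 4sU that did not pass the test changed sign with single libraries left out. Their log2 ranges were, for 15 h at D0, Igf2bp2 -0.16 to 0.48, Lin28a -0.48 to 0.12, Lin28b -0.12 to 0.35, Trim71 -0.45 to 0.032. They were, for 15 h at D6, Igf2bp1 -0.029 to 0.17, Igf2bp2 -0.17 to 0.42, Lin28a -1.12 to 1.14. They were, for the difference of the responses, Igf2bp2 -0.47 to 0.18, Lin28a -0.93 to 1.33. They were, for 9 h at D0, Igf2bp2 -0.022 to 0.34, Igf2bp3 -0.17 to 0.038, Lin28a -0.43 to 0.10, Lin28b -0.035 to 0.44, Trim71 -0.21 to 0.26. They were, for 9 h at D6, Igf2bp1 -0.10 to 0.023, Lin28a -0.48 to 0.46, Hmga2 -0.087 to 0.39. With DESeq2, Trim71 after 9 h at D0 was -0.017 in place of 0.037. Depth limited Lin28a, Lin28b and Trim71 at D6 most, with medians of 33, 44 and 66 reads per library.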

Other observations

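Few other 3′ UTRs carry as many let-7 seed matches as Igf2bp1, Lin28b and Hmga2, and 3 of the other 4 with at least 4 matches could be tested for reads at D6 against D0 without 4sU. Nr6a1, an orphan nuclear receptor of early embryos and germ cells, held 8 matches and fell by 2.24 ± 0.44 on the log2 scale (edgeR adjusted p = 0.00682). Trim6, with 6 matches, had 2.36, 7.5 and 23.3 CPM at D0 and 0, 0 and 0 at D6 and did not pass (adjusted p = 0.0663). Hic2, with 4, had -0.64 ± 0.44 (adjusted p = 0.432). Fignl2, with 3, had -1.37 ± 0.38 (adjusted p = 0.0387). Among those with 3 matches, the reads of Trim67, a brain-expressed TRIM protein, rose from 0, 0.182 and 0.294 CPM at D0 to 60, 103 and 108 at D6 (adjusted p = 0.00019). These genes were chosen for their matches after the counts had been seen.

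With the 7 mRNAs left out, the median log2 change of reads was -0.11 over 8965 3′ UTRs without a let-7 match, 0.13 over 829 with 1, 0.12 over 86 with 2 and -0.59 over 15 with 3 or more. The share called lower was 5.5%, 5.55%, 4.65% and 26.7% in the same order, the last being 4 of 15, with 1 more called higher. Of these 4, 2 are 3′ UTR forms that share reads. For the decay slope at D6 minus that at D0, the medians in the same order were -0.100, -0.105, -0.127 and -0.100 log2 per h. These were taken over 7983, 742, 80 and 15 3′ UTRs. No test was made of these groups.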
